A study of Mus musculus with 2 samples.

Results

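The erythroid cells of the embryonic mouse heart region were examined in 2 single-cell libraries. A cell counted as erythroid when 7 haemoglobin genes (Hba-x, Hba-a1, Hba-a2, Hbb-y, Hbb-bh1, Hbb-bt and Hbb-bs) together made up at least 15% of its mRNA molecules, among barcodes with at least 400 genes detected and at most 10% of molecules from the mitochondrial genome. By this rule 325 of 8972 passing cells were erythroid, 177 of 4038 in replicate 1 and 148 of 4934 in replicate 2. Both libraries came from wild-type (WT) embryos of CD1, an outbred mouse stock, at E10.0. The tissue was the posterior second heart field, which holds progenitors that join the heart, collected with the heart tube. Tissue from about 80 embryos was pooled per library, and the libraries were biological replicates processed on different days. There was 1 group and no treated or mutant one, so each comparison is between classes of cells within the same libraries.

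In the mouse the first red cells arise in the yolk sac and enter the circulation soon after the heart starts to beat. These primitive erythroid cells still carry a nucleus, divide and fill with haemoglobin as they mature in the blood. They are known for embryonic globins: the zeta-type alpha chain from Hba-x, and the beta-type chains from Hbb-y and Hbb-bh1. Red cells made later, first in the fetal liver, use Hba-a1, Hba-a2, Hbb-bs and Hbb-bt, the adult genes. Haemoglobin also needs heme, whose first step in red cells is catalysed by the enzyme encoded by Alas2, and iron brought in by transferrin receptor. The transcription factors Gata1, Tal1 and Klf1 drive this programme, Gata1 through sites with the core GATA.

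Sequences upstream of 5 genes are shown as examples: the embryonic Hbb-y, the adult Hbb-bs, Alas2, Klf1 and Ermap, a red cell surface protein. They come from RefSeq windows (GRCm38.p6) of the 250 bases before each start, 5′ to 3′ on the gene's own strand. GENCODE places these starts further upstream, by 9 bases in Hbb-y, 168 in Hbb-bs, 42 in Alas2, 54 in Klf1 and 16 in Ermap, so the bases before both starts are printed. Capitals mark AGATAA or TGATAA, read on either strand. Each of the 5 examples holds such a match, and Hba-x, which has none before both starts, is not shown.
Hbb-y: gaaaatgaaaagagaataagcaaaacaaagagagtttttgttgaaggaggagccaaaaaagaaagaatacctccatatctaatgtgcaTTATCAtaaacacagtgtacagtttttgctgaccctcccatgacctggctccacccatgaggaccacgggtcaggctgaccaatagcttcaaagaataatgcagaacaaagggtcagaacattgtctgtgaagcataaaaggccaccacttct
Hbb-bs: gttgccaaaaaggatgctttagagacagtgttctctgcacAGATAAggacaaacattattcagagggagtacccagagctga
Alas2: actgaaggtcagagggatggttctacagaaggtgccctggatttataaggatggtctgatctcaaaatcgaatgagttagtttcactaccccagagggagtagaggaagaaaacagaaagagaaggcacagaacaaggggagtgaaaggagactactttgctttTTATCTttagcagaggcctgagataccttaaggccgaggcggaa
Klf1: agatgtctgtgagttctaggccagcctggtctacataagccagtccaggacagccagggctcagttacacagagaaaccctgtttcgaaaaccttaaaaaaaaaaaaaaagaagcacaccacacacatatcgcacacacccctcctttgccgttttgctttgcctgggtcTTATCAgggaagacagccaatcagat
Ermap: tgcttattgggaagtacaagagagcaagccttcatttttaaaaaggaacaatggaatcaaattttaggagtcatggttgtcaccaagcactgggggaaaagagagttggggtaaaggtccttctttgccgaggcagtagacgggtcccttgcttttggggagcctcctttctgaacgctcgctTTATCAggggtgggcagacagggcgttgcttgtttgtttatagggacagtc
The Hbb-y sequence is chr7:103853217-103853457 and that of Hbb-bs chr7:103828097-103828178, both on the minus strand. Those of Alas2 (chrX:150547167-150547374) and Klf1 (chr8:84901732-84901927) lie on the plus strand, and that of Ermap (chr4:119190012-119190245) on the minus strand. The GATA match began 153 bases before the GENCODE start in Hbb-y, 42 in Hbb-bs, 44 in Alas2, 26 in Klf1 and 51 in Ermap. The GENCODE start here is the outer end of the annotated gene and not a measured start of transcription. In the RefSeq windows AGATAA or TGATAA occurred in 5 of the 6 haemoglobin genes that had one (83.3%), and in 17.0% of all 27025 genes. In 4 of the 5 it lay before the GENCODE start too; in Hba-x, whose starts lie 200 bases apart, it lay inside the gene as GENCODE gives it. CCACACCC, searched on both strands and overlapping neither, occurred in 1 of the 6, Hbb-bs, and in 3.19% of all genes. In Hbb-bs it lay past the GENCODE start, so it is not in the printed sequence. The TGATAA matches of Hba-a1 and Hba-a2 lie in identical stretches of sequence, so they are not separate cases. A match is a run of letters and not a measured binding site.

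Haemoglobin made up a median 38.0% of all unique molecular identifiers (UMIs) per erythroid cell in replicate 1 and 47.6% in replicate 2, with ranges of 15.0% to 56.5% and 19.7% to 62.4%. Remaining cells had medians of 0.188% and 0.151%. These values chose the cells and are a description with no test. The limit of 15% fell in a thinly filled range: the cells just inside had 15.03% and 15.04% in replicate 1 and 19.7% and 20.1% in replicate 2, and those just outside had 14.5% and 14.1% in replicate 1 and 4.09% and 3.23% in replicate 2. Between 5% and 15% lay 25 cells in replicate 1 and 0 in replicate 2. The erythroid share of passing cells was 4.38% in replicate 1 (exact 95% binomial interval 3.77% to 5.06%) and 3.00% in replicate 2 (2.54% to 3.51%), a mean of 3.69% ± 0.978 (SD, n = 2). The intervals do not overlap, and they cover counting error only.

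**Figure D1:**
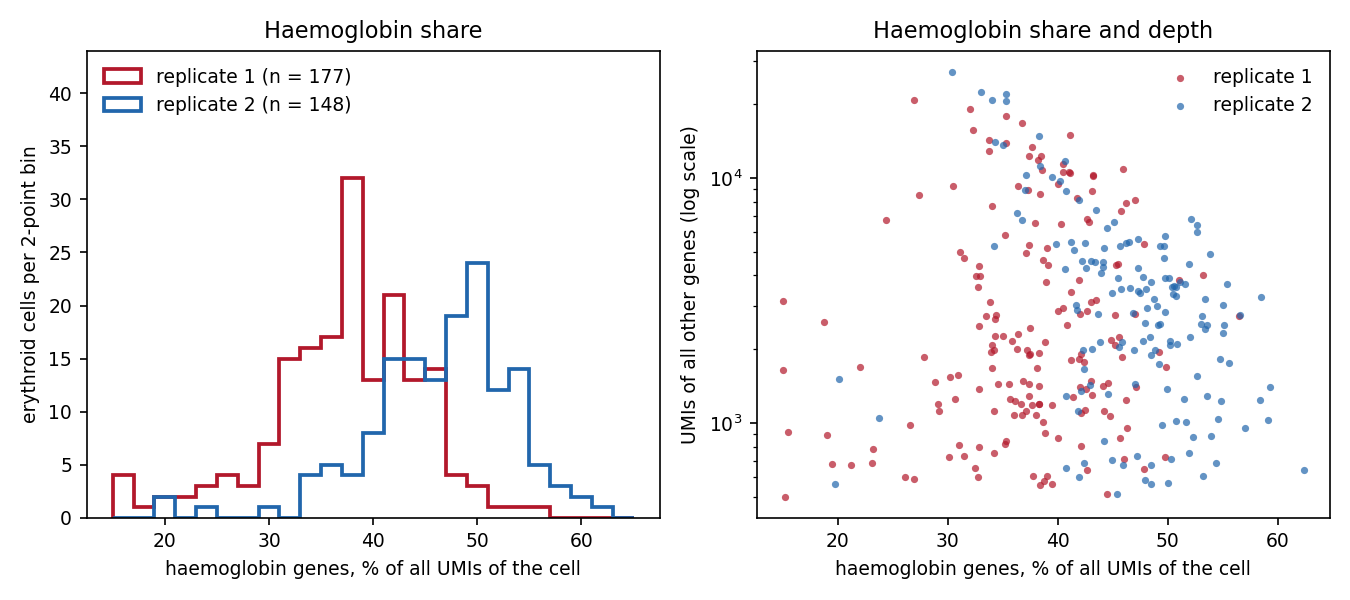
Haemoglobin share of the 325 erythroid cells: left, number of cells per bin of share (percent of all UMIs) in each replicate; right, share against the UMIs of all other genes in the same cell (log scale). Replicate 2 lies to the right of replicate 1, with medians of 47.6% and 38.0%, and the deepest cells of replicate 2 sit at lower shares.

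Erythroid cells held more UMIs than other cells. Their medians were 3150 and 5866 UMIs, or 1955 and 2973 without haemoglobin, against 1289 and 1408 UMIs in remaining cells. Endothelial-marked cells, defined below, had medians of 1883 and 2556 UMIs. Without haemoglobin these were 1881.5 and 2553, nearer to the erythroid medians. To compare classes, UMIs were summed per library and class. The erythroid sums held 1109459 and 1093357 UMIs, of which haemoglobin was 38.2% and 43.8%. Levels below are UMIs per 1000000 UMIs of the sum (CPM) with the haemoglobin genes left out of gene and total, unless all UMIs are named. The erythroid class was set against 2 others: 416 endothelial-marked cells, with at least 3 of 16 endothelial markers detected, and 8225 remaining cells with neither these nor myeloid markers. The libraries shared 0 barcodes among passing cells.

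The embryonic globins dominated in both libraries. Hbb-y was the largest, with 148217 UMIs in replicate 1 and 187968 in replicate 2. Hbb-bh1 gave 112326 and 129593 UMIs and Hba-x 106753 and 113409 UMIs. Hba-a1, an adult alpha gene, gave 50766 and 45082 UMIs, and its near-identical copy Hba-a2 gave 43 and 41. How the counting divided reads between these copies is not given in the sources used here, so their split is uncertain. The adult beta genes Hbb-bs and Hbb-bt, also a closely related pair, gave 4875 and 2723 UMIs and 1291 and 518 UMIs. Hbb-y was detected in 177 of 177 and 148 of 148 erythroid cells. The beta-type genes lie on chromosome 7 (Hbb-y at chr7:103851749-103853216 and Hbb-bh1 at chr7:103841637-103843164, minus strand, GRCm38) and the alpha-type genes on chromosome 11 (Hba-x at chr11:32276400-32278116 and Hba-a1 at chr11:32283511-32284465, plus strand). The order of the 4 large genes was the same in both libraries.

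The balance of the chains was not the same in the libraries, and is described with no test. Hba-x made up 67.8% of alpha-type UMIs in replicate 1 and 71.5% in replicate 2, with medians per cell of 67.7% and 79.1%. The ratio of alpha-type to beta-type UMIs was 0.591 and 0.494, and that of Hbb-bh1 to Hbb-y 0.758 and 0.689. In replicate 2 the deepest quartile group of cells (5075 to 27082 UMIs without haemoglobin) had a median Hba-x share of 68.0%, a median haemoglobin share of 40.8% and an alpha to beta ratio of 0.556. The other quartile groups of replicate 2 had medians of 79.4% to 80.4%, 48.5% to 49.9% and 0.382 to 0.441. In replicate 1 the deepest quartile group (4943 to 20769 UMIs) had 68.4%, 38.3% and 0.635, and the others 64.2% to 70.6%, 36.8% to 38.7% and 0.513 to 0.593. The part of depth in these differences was not tested.

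Adult beta globin was a small share in nearly all cells. Hbb-bs and Hbb-bt made up 2.31% and 1.01% of summed beta-type UMIs, with medians per cell of 0.629% and 0.410%. Their share was at most 7.26% in 174 cells of replicate 1 and at most 4.44% in 147 cells of replicate 2. The other 4 cells, 3 in replicate 1 and 1 in replicate 2, had 98.2% to 99.7% adult beta globin and 0% to 4.79% Hba-x among alpha-type UMIs. The largest of them had 7222 UMIs, with 1527 from Hbb-bs, 502 from Hbb-bt and 775 from Hba-a1, against 10 from Hbb-y, 8 from Hbb-bh1 and 3 from Hba-x. These 4 cells go against the name primitive erythroid, and the other 321 of 325 cells carry mainly embryonic beta globin. Results below were also computed without the 4 cells. There 2499 of the 2517 genes higher and 3256 of the 3262 genes lower in erythroid than in remaining cells, given further on, were called again.

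**Figure D2:**
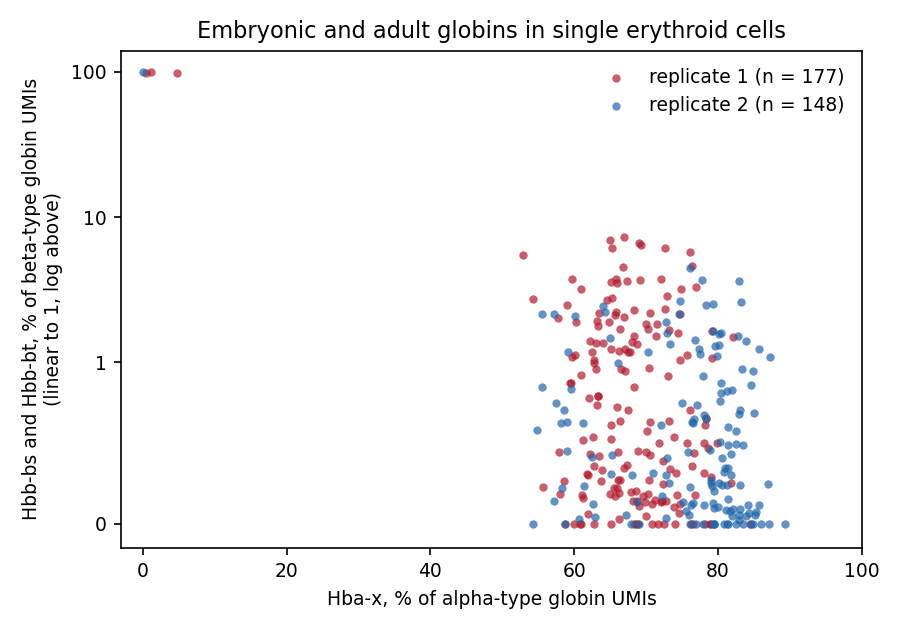
Each point is 1 erythroid cell: the x axis gives Hba-x as percent of alpha-type globin UMIs, the y axis Hbb-bs and Hbb-bt as percent of beta-type globin UMIs (linear to 1, log above). The 4 cells at the upper left have 98.2% or more adult beta globin, and all others lie at 7.26% or below.

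Haemoglobin UMIs were also found outside these cells. The erythroid cells held 88.2% and 90.7% of the haemoglobin UMIs of their libraries. Barcodes with 10 to 200 UMIs, too few for a passing cell, had 3.60% and 2.28% haemoglobin. Hbb-y was the largest component in each: it was 34.9% and 39.2% of haemoglobin UMIs in erythroid cells, 37.0% and 45.3% in other passing cells, and 40.1% and 41.5% in the low barcodes. Hbb-bs made up 1.15% and 0.568% in erythroid cells, 4.49% and 1.85% in other passing cells, and 1.91% and 1.74% in the low barcodes. Shares of other cells with a UMI can therefore include free RNA. Alas2, which the rule did not use, was detected in 84.7% and 89.2% of erythroid cells, 2.91% and 0.820% of endothelial-marked cells and 1.28% and 0.705% of remaining cells. Thinned to 500 non-haemoglobin UMIs per cell, these shares were 51.4% and 59.5%, 0.581% and 0%, and 0.523% and 0.243%.

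Against the remaining cells, 2517 of 9828 genes tested were higher in erythroid cells (25.6%) and 3262 were lower (33.2%) at an adjusted p under 0.05, by edgeR's quasi-likelihood test with Benjamini-Hochberg adjustment, and 58.8% were called in all. Of these calls 1065 were more than 2-fold higher and 2499 more than 2-fold lower. The test compares how far the classes differed within 2 libraries, with the spread of each gene moderated by that of all genes. Its p-values and SEs cover these libraries only. They can be smaller than the gene's own spread between the libraries would give. With all UMIs as the total and without edgeR's TMM scaling (the all-UMI scale below), the median gene moved by -1.01 on the log2 scale and the split became 548 higher and 7365 lower. Each list below is therefore set beside the median log2 difference of all genes tested, -0.12. The lists were chosen with results of these data known, so their counts are descriptions. Folds below come from edgeR's log2 differences with TMM scaling, whereas the CPM levels carry no TMM. A fold can therefore lie outside the ratios of the levels printed beside it. Bounds given as at least, and ratios with exact intervals, come from UMIs and totals without TMM.

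Heme synthesis genes were higher almost throughout. Of 15 tested members 13 were higher and 2 lower, with a median log2 difference of 4.26. Alas2 had 1855 and 1967 CPM in erythroid cells, against 4.93 and 2.95 CPM in remaining cells, a log2 difference of 9.14 ± 0.133 (SE) and an adjusted p of 5.5e-24 by edgeR. Per all UMIs its levels were 1146 and 1105 CPM in erythroid cells, against 4.92 and 2.94 CPM in remaining cells. The classes lie far apart in both libraries on either scale. Blvrb, a biliverdin reductase abundant in red cells, had 1805 and 1980 CPM against 17.2 and 19.9 CPM. Cpox, which makes protoporphyrinogen, had 1397 and 1135 CPM against 32.1 and 23.1 CPM, and Fech, which inserts the iron, 900 and 1039 CPM against 22.1 and 23.8 CPM. The steps between were higher too: Alad 25.1-fold, Uros 19.6-fold, Urod 12.3-fold and Ppox 12.0-fold. The mitochondrial transporters Abcb10 and Slc25a38 were 41.2-fold and 3.90-fold higher. Alas1, the housekeeping counterpart of Alas2, had 5.84 and 9.77 CPM in erythroid cells, against 29.6 and 27.8 CPM in remaining cells. Hmox1, which breaks heme down, had 1 UMI in all erythroid cells, against 10.6 and 9.29 CPM in remaining cells, a ratio of 12.9 (exact 95% interval 2.28 to 510, counting error only).

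Iron genes followed, with 14 of 17 higher, 1 lower and a median of 1.81 (10 higher and 4 lower of 15, median 0.84, on the all-UMI scale). Slc25a37, or mitoferrin, which carries iron into mitochondria, had 1327 and 1731 CPM in erythroid cells, against 22.7 and 20.9 CPM in remaining cells, 80.5-fold. The transferrin receptor Tfrc had 882 and 870 CPM against 85.8 and 69.1 CPM, and the endosomal ferrireductase Steap3 71.5 and 65.1 CPM against 0.822 and 0.536 CPM. Ferritin heavy chain, Fth1, had 12202 and 13780 CPM against 1184 and 1385 CPM, 11.7-fold, and the light chain Ftl1 was 3.56-fold higher. Glrx5, needed for iron-sulfur clusters, was 11.4-fold higher. The member that was lower was Aco1, an iron-responsive RNA-binding protein, at 27.7 and 16.3 CPM against 61.4 and 55.6 CPM. Ireb2 and Pcbp1 did not pass the test.

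Among 23 transcription factors tested, 17 were higher and 4 lower, with a median of 2.04 (15 higher and 6 lower of 24, median 0.99, on the all-UMI scale). Klf1 had 740 and 855 CPM in erythroid cells, against 2.26 and 1.25 CPM in remaining cells, a log2 difference of 9.03 ± 0.177 (SE) with an edgeR adjusted p of 9.5e-22. Tal1 had 412 and 368 CPM against 2.88 and 2.50 CPM. Gata1 had 207 and 241 CPM against 0.514 and 0.804 CPM, 371-fold. Their partners Lyl1 (141-fold) and Lmo2 (20.7-fold), and Nfe2 (178-fold), Gfi1b (275-fold) and Ikzf1 (168-fold), were higher as well. Gata2, which acts in blood progenitors before Gata1, and Sox6, which represses Hbb-y in later red cells, had 0 UMIs in the erythroid cells of both libraries. Against the floor of 3 UMIs per library (4.38 and 4.89 CPM), Sox6 was at least 2.13-fold lower, from 11.8 and 7.95 CPM in remaining cells. Gata2 was itself at only 2.36 and 3.40 CPM in remaining cells, under that floor, so no fold is given. Its place among the 4 lower factors rests on a fitted value. Bcl11a, the other repressor of embryonic globins in mice, and Myb, needed for the later red cells, had 1 and 0 UMIs in erythroid cells and did not pass the filter on low counts. Remaining cells had 14.9 and 9.83 CPM of Bcl11a and 3.60 and 2.59 CPM of Myb. The level of Myb there lay under the erythroid floor too, so its 0 UMIs cannot show that it was lower.

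The red cell membrane list had the highest median, 6.31, with 20 of 24 members higher and 2 lower (18 higher and 5 lower on the all-UMI scale). The anion exchanger Slc4a1 had 1102 and 1109 CPM in erythroid cells, against 4.11 and 1.79 CPM in remaining cells, 438-fold. Ermap had 371 and 352 CPM against 0.822 and 0.268 CPM, 745-fold. Protein 4.2 (Epb42) and the Rh-associated glycoprotein Rhag were each 625-fold higher. The lower members were Cd24a, a surface antigen of many immature cells, at 203 and 156 CPM in erythroid cells against 597 and 717 CPM in remaining cells, and Bcam, a laminin receptor, with 3 UMIs in erythroid cells, a ratio of 22.1 (exact 95% interval 7.56 to 108). Cd44, which marks red cells at early stages in adult marrow, had 0 UMIs in erythroid cells and 3.80 and 8.40 CPM in remaining cells.

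**Figure D3:**
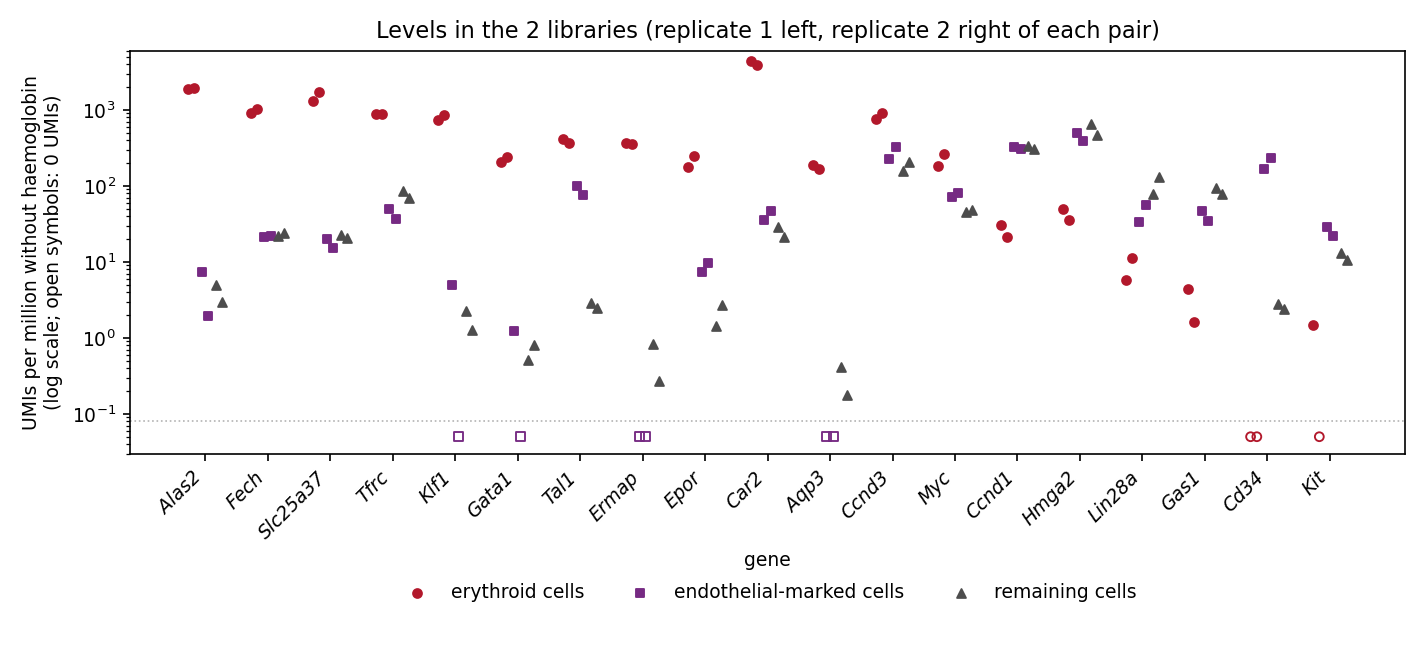
Levels of 19 genes in each library (CPM without haemoglobin, log scale) in erythroid, endothelial-marked and remaining cells; open symbols mark 0 UMIs. The 13 genes from Alas2 to Myc are higher in erythroid cells of both libraries than in either other class, and the 6 from Ccnd1 to Kit are lower than in endothelial-marked cells.

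Erythropoietin is the hormone that keeps red cell precursors alive, acting through its receptor, Jak2 and Stat5. Of 15 members of this signalling list 8 were higher (53.3%) and 3 lower (20%), with a median of 1.45. Shares of all genes tested were 25.6% and 33.2%. On the all-UMI scale 6 members were higher and 4 lower of 14, with a median of 0.14. The receptor gene Epor had 177 and 249 CPM in erythroid cells, against 1.44 and 2.68 CPM in remaining cells, 117-fold. Csf2rb, a cytokine receptor chain, was 211-fold higher, Stat5a 21.3-fold and the Stat5 target Pim1 6.54-fold. Kit, the receptor of stem cell factor on early progenitors, was lower, with 1 UMI in erythroid cells against 12.9 and 10.5 CPM in remaining cells, a ratio of 15.2 (exact 95% interval 2.69 to 601). Igf1r and Tgfbr1, receptors with wide use, were 3.60-fold and 3.26-fold lower. The survival factor Bcl2l1, with 33.6 and 30.9 CPM against 21.7 and 32.1 CPM, did not pass the test (adjusted p = 0.13 by edgeR).

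Red cell enzymes and redox genes were higher in 15 of 17 cases and lower in 1, with a median of 1.40. On the all-UMI scale 7 were higher and 5 lower of 16, with a median of 0.33. Carbonic anhydrase 2, Car2, had 4408 and 3930 CPM in erythroid cells, against 28.7 and 21.3 CPM in remaining cells, 193-fold. The peroxidase Gpx1 had 6865 and 7508 CPM against 505 and 580 CPM, and Bpgm, which makes the regulator of oxygen affinity, 794 and 1086 CPM against 31.8 and 38.2 CPM. Gclm, for glutathione synthesis, was 21.0-fold higher, and Txnrd1, thioredoxin reductase, was 1.55-fold lower. Of 18 genes for ubiquitin tagging and organelle clearance, steps that empty the red cell late in its life, 7 were higher (38.9%) and 3 lower (16.7%). Shares of all genes tested were 25.6% and 33.2%. The list median was 0.29, and on the all-UMI scale 5 members were higher and 11 lower, with a median of -0.67. The red cell ubiquitin ligase Trim10 had 356 and 384 CPM against 0.514 and 0.536 CPM, 768-fold. Eif2ak1, the heme-regulated kinase, was 4.91-fold higher. Ulk1 and Fundc1, of autophagy and mitophagy, were 4.86-fold and 1.71-fold lower, and Ubb, a ubiquitin gene, was 1.91-fold lower.

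**Figure D4:**
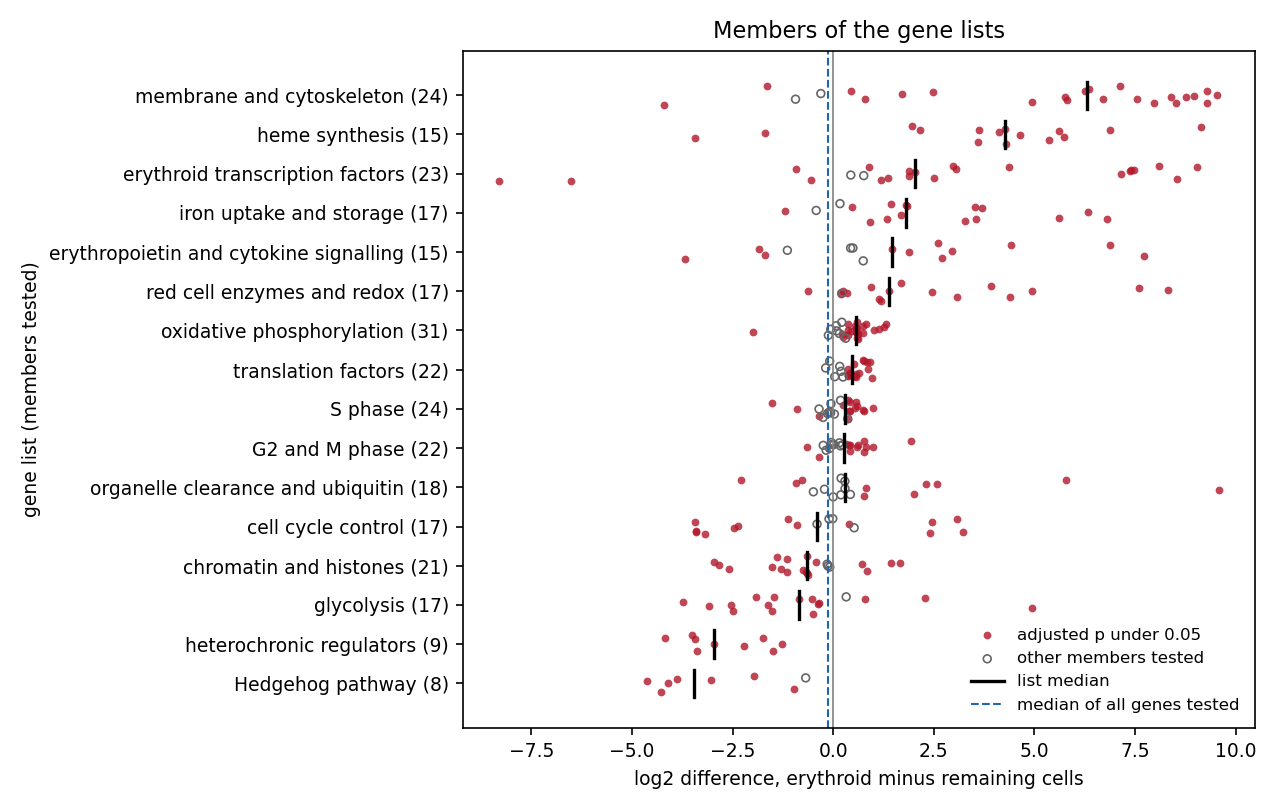
Log2 differences, erythroid minus remaining cells, for the tested members of 16 gene lists, with the number tested in brackets; filled points have an adjusted p under 0.05 by edgeR, black bars are list medians and the dashed line is the median of all genes tested (-0.12). By median, the membrane, heme and factor lists lie furthest right and the heterochronic and Hedgehog lists furthest left; the medians of the oxidative phosphorylation, translation, S phase, G2 and M phase and clearance lists turn negative on the all-UMI scale, and the points of Gata2 and Sox6, the 2 factors furthest left, are fitted values of genes with 0 UMIs.

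Cell cycle genes showed small differences, whose direction depended on the total used. Of 24 S phase genes 12 were higher and 3 lower, median 0.30, and of 22 G2 and M phase genes 11 were higher and 2 lower, median 0.27. On the all-UMI scale these medians were -0.67 and -0.69, with 0 and 1 gene higher and 21 and 17 lower. Mki67, a marker of cycling cells, had 1292 and 620 CPM in erythroid cells, against 433 and 160 CPM in remaining cells, 3.84-fold. It kept its direction on the all-UMI scale, at 798 and 348 CPM against 433 and 160 CPM. Top2a had 905 and 577 CPM against 968 and 569 CPM and did not pass the test (adjusted p = 0.089 by edgeR). For Top2a the libraries lay further apart than the classes. Tipin and Fen1, of the replication fork, were 1.69-fold and 1.98-fold higher, and on the all-UMI scale Tipin was at -0.21 and Fen1 at 0.02 on the log2 scale. Hells and Cdca7, a chromatin remodeller and its partner, were 2.87-fold and 1.88-fold lower.

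The D cyclins, which carry growth signals to the cycle, took different directions. Ccnd3 had 768 and 909 CPM in erythroid cells, against 158 and 209 CPM in remaining cells, 5.29-fold higher. Ccnd1 had 30.7 and 21.2 CPM against 333 and 306 CPM, 10.6-fold lower, and Ccnd2 115 and 94.5 CPM against 668 and 573 CPM, 5.13-fold lower. Their kinase Cdk6 and the inhibitor Cdkn1c were 9.07-fold and 10.7-fold lower. Myc had 182 and 264 CPM against 45.5 and 48.0 CPM, whereas Mycn had 10.2 and 9.77 CPM against 102 and 149 CPM. Ccnd3 and Myc were higher, and Ccnd1, Ccnd2 and Mycn lower, than in endothelial-marked cells too. In the control list as a whole 5 of 17 members were higher (29.4%) and 8 lower (47.1%), with a median of -0.40. Of all genes tested 25.6% were higher and 33.2% lower, so the share higher lay near that of all genes. On the all-UMI scale 4 members were higher and 12 lower, with a median of -1.37.

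Heterochronic regulators set the timing of development, and Lin28b and its targets act on the fetal globin genes in human red cells. All 9 tested, among them Mycn, which is also in the control list, were lower in erythroid cells, both than in remaining cells (median -2.96, where 33.2% of all genes were lower) and than in endothelial-marked cells (median -2.11, where 30.3% of all genes were lower). Hmga2, a chromatin protein, had 49.6 and 35.8 CPM in erythroid cells, 490 and 390 CPM in endothelial-marked cells and 643 and 474 CPM in remaining cells. The RNA-binding protein Igf2bp1 had 177 and 160 CPM, 361 and 411 CPM, and 470 and 469 CPM in the same order. Lin28a had 5.84 and 11.4 CPM in erythroid cells, against 77.9 and 130 CPM in remaining cells, and Lin28b 27.7 and 27.7 CPM against 105 and 75.4 CPM, 2.82-fold lower.

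The study concerned Hedgehog signalling, in which ligands such as Shh relieve Ptch1's block on Smo and so activate Gli factors. Of 8 members tested 7 were lower than in remaining cells, with a median of -3.45. Gas1, a coreceptor, had 4.38 and 1.63 CPM in erythroid cells, against 95 and 79.4 CPM in remaining cells, 24.5-fold. Shh, the ligand, had 2 UMIs in erythroid cells, a ratio of 22.4 (exact 95% interval 6.19 to 186), and Gli1, a target and factor of the pathway, had 1 UMI, a ratio of 20.4 (3.63 to 807). Gli3 was 8.14-fold lower, Smo 3.93-fold and Ptch1 1.97-fold, at 14.6 and 22.8 CPM against 47.5 and 36.7 CPM. Against endothelial-marked cells 3 of the 8, Gas1, Gli3 and Smo, were lower (37.5%), close to the 30.3% of all genes that were lower there.

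The oxidative phosphorylation, translation and ribosomal protein lists had medians of opposite sign on the 2 scales, which differ in both the total and TMM. Of 31 oxidative phosphorylation genes 23 were higher and 1 lower (median 0.56), and on the all-UMI scale 2 were higher and 24 lower (median -0.40). Translation factors gave 16 higher and 0 lower of 22 (median 0.47), and on the all-UMI scale 0 higher and 16 lower (median -0.50). For 82 ribosomal protein genes, many with processed copies that can share reads, 69 were higher and 2 lower (median 0.69), and on the all-UMI scale 0 were higher and 40 lower (median -0.29). Pabpc1, the poly(A)-binding protein, had 5047 and 7495 CPM in erythroid cells against 2897 and 4511 CPM in remaining cells. Per all UMIs it had 3117 and 4209 CPM against 2890 and 4504 CPM, so the libraries took opposite directions. Slc25a4, the heart form of the adenine nucleotide carrier, was 3.98-fold lower, and Slc25a5, the form of growing cells, 2.42-fold higher.

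Glycolysis and chromatin genes were mostly lower on both scales. Of 17 glycolysis genes 13 were lower and 3 higher (median -0.84; 15 lower and 2 higher of 18, median -2.12, on the all-UMI scale). Pkm, the pyruvate kinase of most tissues, had 471 and 414 CPM in erythroid cells, against 1828 and 2040 CPM in remaining cells, while Pklr, the red cell and liver form, had 255 and 318 CPM against 1.44 and 0.626 CPM. Ldhb was 13.2-fold lower and Eno1 2.76-fold lower, and the hexokinase Hk1 was 4.90-fold higher. Of 21 chromatin genes 14 were lower and 4 higher (median -0.66; 17 lower and 1 higher, median -1.63, on the all-UMI scale). The histone variants H2afv and H2afy were 6.02-fold and 7.20-fold lower and H3f3b 2.64-fold lower. The linker histone Hist1h1c and the core histone Hist1h4i were 2.69-fold and 3.16-fold higher. Most core histone mRNAs lack the polyA tail used for capture.

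Stress and immediate early genes were mixed, with 7 of 16 higher (43.75%) and 4 lower (25%), median 0.46. Shares of all genes tested were 25.6% and 33.2%, so the share lower was under that of all genes. On the all-UMI scale 3 members were higher and 8 lower (median -0.50). Hspa1a, a heat shock protein, had 55.5 and 29.3 CPM in erythroid cells, against 2.57 and 2.59 CPM in remaining cells, and Fos 42.3 and 142 CPM against 10.1 and 4.65 CPM. Atf4, which the heme-regulated kinase induces, was 2.90-fold higher, and the chaperone Hspa5 2.40-fold lower.

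Markers of the other cells of the tissue were low in the erythroid sums but not absent. The 12 cardiomyocyte markers summed to 397 and 186 CPM in erythroid cells, against 2787 and 3763 CPM in remaining cells, and 11 of 12 were lower and 0 higher. Mesenchyme markers summed to 51 and 33 CPM against 939 and 909 CPM (12 of 12 lower), and epithelial and hepatoblast markers to 44 and 62 CPM against 1086 and 1026 CPM (10 of 10 tested lower). Neural markers summed to 34 and 5 CPM against 180 and 159 CPM (5 of 6 tested lower). Endothelial markers, which defined a comparison class and were not tested, summed to 54 and 64 CPM in erythroid cells, against 4579 and 5043 CPM in endothelial-marked cells and 93 and 111 CPM in remaining cells. The 15 myeloid markers measured summed to 3 and 0 CPM, with 13 and 15 at 0 UMIs, Ptprc among them. Only 3 cells per library were myeloid-marked, so the comparison with them could not be fitted.

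Genes of blood progenitors were low in erythroid cells, and those of megakaryocytes and platelets were mixed. The 13 blood progenitor genes measured summed to 22 and 29 CPM in erythroid cells, 377 and 429 CPM in endothelial-marked cells and 288 and 248 CPM in remaining cells. Of 6 tested 5 were lower (83.3%, where 33.2% of all genes were lower) and 0 higher: Gata2, Mecom, Kit, Meis1 and Angpt1. The level of Gata2 in remaining cells lay under the erythroid floor of 3 UMIs per library, so its call rests on a fitted value. Meis1 had 10.2 and 9.77 CPM in erythroid cells, against 132 and 130 CPM in remaining cells, and Cd34 had 0 UMIs in erythroid cells. Of 16 megakaryocyte and platelet genes 5 passed the filter on low counts, with a median of 0.35. Of these 2 were higher, Itga2b and Cd9 (40%, where 25.6% of all genes were higher). Pf4 was lower (20%, where 33.2% of all genes were lower). Itga2b, an integrin of megakaryocytes and early blood cells, had 23.3 and 19.5 CPM against 0.719 and 2.50 CPM. Pf4, the platelet factor, had 4 UMIs in erythroid cells, against 9.86 and 51.5 CPM in remaining cells.

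Outside the lists, the 12 largest differences in each direction among called genes were taken. These genes needed at least 50 CPM in the higher class and the same direction in both libraries. Slc30a10, a manganese exporter, had 188 and 194 CPM in erythroid cells, against 0.308 and 0.268 CPM in remaining cells, 691-fold. Aqp3, a water and glycerol channel, had 187 and 166 CPM against 0.411 and 0.179 CPM, and Ncf4, of the phagocyte oxidase, 255 and 265 CPM against 0.411 and 0.447 CPM. Hemgn, or hemogen, a nuclear protein of blood cells, had 919 and 638 CPM against 2.67 and 1.16 CPM, and the coactivator Cited4 1816 and 1974 CPM against 7.50 and 5.45 CPM. Cldn13, which belongs to the claudins, had 51.1 and 61.9 CPM and Nxpe2 74.4 and 57.0 CPM, against 2 UMIs each in remaining cells, ratios of 588 (157 to 4946) and 693 (186 to 5811). Redrum, a long noncoding RNA of red cells, was 361-fold higher. Asb17os had 51.1 and 63.5 CPM, but it is annotated antisense to Asb17 and the strand used in counting is not given in the sources used here, so reads of the pair cannot be told apart. The last 3, Hbq1b, Hbb-bh0 and Hba-ps4, resemble the globins of the rule. Hbb-bh0, an annotated pseudogene with 2615 and 2269 CPM against 5.85 and 3.22 CPM, lies beside Hbb-y, and reads may be shared with its neighbours.

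Among the genes furthest lower were Amotl2, a junction protein with 0 UMIs in erythroid cells against 51.4 and 59.8 CPM in remaining cells, at least 12.0-fold lower. Gja1, or connexin 43, had 4.38 and 3.26 CPM against 139 and 154 CPM, 32.7-fold lower. Hoxb1, a factor of the posterior heart field, had 1 UMI against 65.5 and 72.4 CPM, a ratio of 89.9 (exact 95% interval 16.1 to 3553). The others were Sept10, Flrt3, Epha4, Asb4, Nepn, Tshz2, Zfp503, Nrp2 and Arxes1, with 1 to 3 UMIs each in erythroid cells.

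Against the endothelial-marked cells, 2221 of 9828 genes were higher (22.6%) and 2981 lower (30.3%), or 52.9% in all. On the all-UMI scale the split was 472 higher and 6596 lower. Endothelium shares an early progenitor with blood, and some factors of the red cell list were high in it. Tal1 had 412 and 368 CPM in erythroid cells, against 99.2 and 76.1 CPM in endothelial-marked cells, 5.05-fold higher. Lyl1 was 2.96-fold higher, at 203 and 205 CPM against 90.6 and 66.5 CPM. Lmo2 had 67.1 and 104 CPM against 81.9 and 82.9 CPM and did not pass the test (adjusted p = 0.45 by edgeR), so its levels overlap between the classes. Gata1, Klf1 and Gfi1b were different, with 1, 4 and 0 UMIs in endothelial-marked cells. Gata2 had 0 UMIs in erythroid cells against 27.3 and 27.0 CPM in endothelial-marked cells, at least 5.86-fold lower, and Cd34 0 UMIs against 169 and 231 CPM, at least 43.2-fold lower.

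Of the red cell lists, 13 of 15 heme genes, 13 of 17 iron genes, 15 of 23 factors and 18 of 24 membrane genes were higher than in endothelial-marked cells. The factors gave 11 higher and 8 lower of 24 on the all-UMI scale. Of 21 chromatin genes 10 were lower (47.6%) and 5 higher (23.8%). Of 16 stress genes 6 were lower (37.5%) and 5 higher (31.25%), with a median of -0.25. Of all genes tested 30.3% were lower and 22.6% higher, so the chromatin share higher and both stress shares lay near those of all genes. Of 6 neural markers 3 were lower. Trim10 had 0 UMIs in endothelial-marked cells and was at least 112-fold higher, Ermap at least 109-fold, Rhag at least 59.8-fold and Aqp3 at least 53.4-fold. Epor had 177 and 249 CPM against 7.44 and 9.63 CPM in endothelial-marked cells, 28.2-fold higher. Outside the lists, Pdzk1ip1, a membrane protein next to Tal1, was at least 24.7-fold higher, Asb17 at least 15.5-fold, and Slc38a5, an amino acid transporter, had 165 and 207 CPM against 1 UMI. The furthest lower genes had 0 UMIs in erythroid cells. These include the calcium-binding protein S100a16 (at least 46.9-fold), the growth factor Igf1 (at least 35.8-fold), the natriuretic peptide receptor Npr3 (at least 27.8-fold), the apelin receptor Aplnr (at least 23.6-fold) and the endothelial factor Erg (at least 19.8-fold).

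Erythroid cells also differed among themselves in haemoglobin share. A slope of each gene over that share was fitted with edgeR across sums of cells. The share is the value that chose the cells, and the sums are groups of cells of the same 2 libraries and not replicates, so the fit is used only to pick genes, and no p-value is given. Bins below and above 45% held 153 and 24 cells in replicate 1 and 55 and 93 in replicate 2. The fit picked 4 of 4778 genes (0.0837%), with 1 positive slope (0.0209%) and 3 negative (0.0628%), at the threshold used above, and DESeq2 picked 0. H2afx, a histone variant of the DNA damage response, had 544 and 516 CPM in the upper bin, against 190 and 218 CPM in the lower bin. Gng5, a G protein subunit, had 74.2 and 59.5 CPM in the upper bin, against 91.0 and 240 CPM in the lower bin. The others were Rpl35 and the gene model Gm12346, which may share reads with related genes.

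When the cells of each library were instead divided into 3 groups of near equal size, or tertiles, by haemoglobin share, the fit picked 36 of 4125 genes (0.873%), 16 with a positive slope (0.388%) and 20 with a negative one (0.485%). H2afx and Gng5 were picked both ways. The list members with a positive slope were Alas2, Urod and Blvrb of heme synthesis, Fth1, Rhd, Car2, Gpx1, H2afx and Fos, and those with a negative one were Npm1, Hsp90aa1 and Actc1. Alas2 had 1447, 1829 and 2282 CPM from the lowest to the highest tertile in replicate 1 and 1663, 2274 and 2463 CPM in replicate 2. Gpx1 had 5531, 6910 and 8105 CPM and 5792, 9369 and 10136 CPM. Fth1 had 9993, 12182 and 14369 CPM and 11231, 16364 and 17909 CPM. In both libraries each of these 3 was higher in each next tertile. Fos, an immediate early gene, had 28.8, 38.3 and 60.4 CPM and 75.3, 160 and 310 CPM, and replicate 2 lay above replicate 1 in every tertile. Gata1, which was not picked, had 206, 184 and 237 CPM and 220, 221 and 327 CPM. The genes outside the lists were named after their values were seen.

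The genes with a negative slope include several that are not known as red cell genes. Npm1, a nucleolar protein, had 3293, 2499 and 2115 CPM from the lowest to the highest tertile in replicate 1 and 3141, 2274 and 1701 CPM in replicate 2. Ptn, a secreted growth factor of mesenchyme and epithelium, had 292, 65.0 and 27.9 CPM and 60.9, 13.4 and 16.8 CPM. Actc1, cardiac actin, had 211, 3.83 and 4.65 CPM and 72.4, 60.2 and 0 CPM. The 12 cardiomyocyte markers together had 1150, 61 and 74 CPM and 229, 181 and 67 CPM. The 12 mesenchyme markers had 77, 46 and 33 CPM and 41, 20 and 25 CPM. The part of RNA from other cells in these genes was not tested. The lowest tertile spanned 15.0% to 35.2% haemoglobin in replicate 1 and 19.7% to 44.2% in replicate 2.

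**Figure D5:**
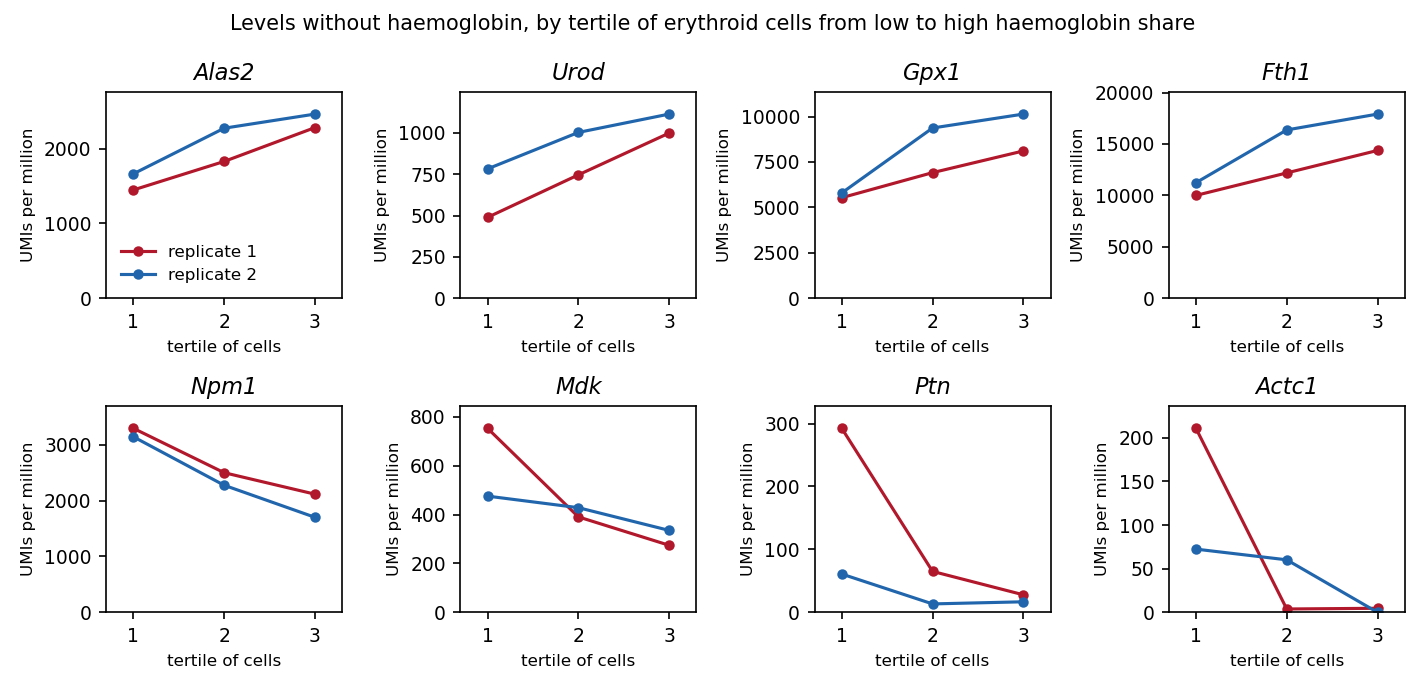
Levels of 8 genes (CPM without haemoglobin) in the erythroid cells of each library, divided into tertiles from low to high haemoglobin share (49 to 59 cells each); lines join the tertiles of 1 library. Alas2, Urod, Gpx1 and Fth1 are higher in each next tertile of both libraries, Npm1 and Mdk are lower in each, and Ptn and Actc1 are highest in the lowest tertile, most of all in replicate 1.

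The RefSeq windows of the genes that were higher, which end at the RefSeq start, were searched in the same way. Of 50 higher members of the heme, factor and membrane lists 39 had a window, and 13 of these held AGATAA or TGATAA (33.3%), against 17.0% of all genes. They include Tal1, Gfi1b, Klf1, Rhag, Epb42, Kel and Icam4 besides Alas2 and Ermap. CCACACCC occurred in 0 of the 39, against 3.19% of all genes. Of the 12 genes outside the lists 7 had a window and 3 of these held AGATAA or TGATAA, Slc30a10, Asb17os and Hemgn. The members were chosen by their level, so these shares are descriptions.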

How the data were processed

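The libraries were made by Drop-seq, which captures polyadenylated RNA with a cell barcode and a UMI per molecule, and sequenced on a NextSeq. The deposited files hold whole-number UMI counts per gene and barcode, not normalized by the authors. The submitters' processing notes name mm10 and Scanpy. Neither these notes nor the labels name an aligner, a counting tool, an annotation release, a strand setting or the rule by which barcodes were selected. The files held 12497 barcodes, with 11958912 UMIs in replicate 1 and 14131384 in replicate 2.

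Cells were classed by the rules given in the report, and endothelial-marked or myeloid-marked needed at least 3 markers of that class. UMIs were summed per library and class without the 7 haemoglobin genes. The 6 sums of 3 classes were fitted with edgeR 4.0.16 in R 4.3.3 (trimmed mean of M-values scaling, filterByExpr with a minimum count of 10, quasi-likelihood F test, two-sided, library as a block, Benjamini-Hochberg adjustment over all genes tested, threshold 0.05). This left 2 residual degrees of freedom. SEs were derived from the log2 difference and the F statistic. The classes of a library come from the same pool of embryos, so the library pairs them, and the deviations of a library from the class means correlated at 0.569 to 0.799 between classes over 3891 genes. DESeq2 1.42.0 served as an alternative. A slope over haemoglobin share, per 10 percentage points, was fitted the same way across sums of bins of cells and serves as a description, since bins of cells are not replicates; the lowest bin had too few cells in replicate 2 and joined the next higher one. That step, and leaving out the 4 cells with adult beta globin, were chosen after seeing the data. The fits were tested on simulated counts with known fold changes. Only a small set of genes was changed there, so this cannot check the scaling where many genes differ between classes. Markers that defined a class were not tested.

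The erythroid cells and the gene lists were chosen with earlier results of these data known. The genes named are the haemoglobin genes, Alas2 and the 4 members of each list with the smallest adjusted p. Outside the lists they are the 12 largest differences in each direction among called genes. These needed at least 50 CPM and the same direction in both libraries. Other list members were named after their values were seen. Some list members counted in the totals are not reported here by name. Where a class had 0 UMIs, folds are bounds against a floor of 3 UMIs per library. Where it had 1 to 3, ratios have exact 95% intervals. Intervals and floors cover counting error only. Doublets were kept. Scrublet (scanpy 1.11.5) at its automatic threshold marked 0 and 1 erythroid cells, which is too few to show that it worked, and its highest 5% of scores held 15 and 2 of them. Sequences are from RefSeq (GRCm38.p6).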

Additional observations from a re-analysis of the deposited data

Results flagged for a closer look

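Haemoglobin-rich barcodes also lay below the limit of 400 genes and entered no comparison. Haemoglobin made at least 15% of UMIs in 90 such barcodes in replicate 1 and in 40 in replicate 2. Their median number of genes was 252 and 154, and their median number of UMIs 529 and 672. No control samples exist in this series, and whether these barcodes hold cells was not tested.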

How the results depend on the processing

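Of 1620 results for single genes under an alternative, 1602 kept their side of the threshold without a reversal, 10 no longer passed, 2 newly passed and 6 reversed. Direction was compared only for genes that passed the threshold in the fit reported above. The slope of Gng5, which is no test over samples, is among these results. The 302 values without 1 replicate have no test, and those of genes that passed in that fit kept their direction. Genes outside the lists were taken only with the same direction in both libraries, so their part of this was fixed in advance. All 6 reversed with all UMIs as the total and no TMM: Tipin (-0.21), Birc5 (-0.21), Ccnb1 (-0.16), Eif5a (-0.0541), Eif2s2 (-0.13) and Eif2s1 (-0.0876), as log2 differences from remaining cells. That setting, which lowers every erythroid level, gave 548 higher and 7365 lower genes against remaining cells, and 472 and 6596 against endothelial-marked cells. Without the replicate block 1526 genes were higher and 2429 lower than in remaining cells, and 1345 and 2295 than in endothelial-marked cells. Against remaining cells the counts then were 5 higher of 24 S phase, 7 of 22 G2 and M phase, 40 of 82 ribosomal protein, 14 of 31 oxidative phosphorylation and 10 of 22 translation genes, and 8 of 17 glycolysis genes lower. The slope over haemoglobin share, fitted across groups of cells and no test over samples, picked 0 genes by DESeq2, 1 without the filter on low counts, 1 without the replicate block and 1 without the highest doublet scores (0 negative in each of these 3), 36 in tertiles (16 positive, 20 negative) and 172 with all UMIs as the total and no TMM (171 negative); the cause was not tested. The erythroid share was 0.534% with at least 50% haemoglobin and 4.72% with at least 800 genes per cell, and ranged from 3.00% to 4.38% leaving out 1 replicate. Counts of called genes without 1 replicate could not be computed, since no residual degrees of freedom remain. With at least 50% haemoglobin, 3 cells remained in replicate 1 and the comparisons could not be fitted, nor could the slope with at least 800 genes. Genes with few UMIs in erythroid cells, such as Gata2 and Cd34, are limited by depth.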
